A study of Mus musculus with 12 samples.

Results

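Round spermatids that had lost Hdac3 were compared with control round spermatids by RNA sequencing. Of the 12 libraries of the series, 6 enter this comparison, 3 from Stra8-cre/Hdac3fl/- mice (KO) and 3 from Hdac3fl/+ mice (control), and they were picked by genotype and cell type as labelled, with no measured value used. KO animals carry 1 floxed and 1 deleted Hdac3 allele together with Stra8-cre, a transgene that expresses Cre in male germ cells before and around the start of meiosis. Control animals carry 1 floxed and 1 intact allele, are labelled wild type with no mention of Cre, so the presence of Cre and the loss of Hdac3 cannot be told apart. The other 6 libraries are pachytene spermatocytes (PS) of the same genotypes, 3 KO and 3 control. All are total RNA libraries made with a strand-specific kit, and the sources used here give no age, strain or method of cell isolation. The submitters call the libraries of a group biological replicates, and p-values measure the spread between them.

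Round spermatids, haploid and newly out of meiosis, build the acrosome, the vesicle that opens at fertilisation, and the flagellum, and later exchange most histones for transition proteins and then protamines. HDAC3 is the catalytic subunit of nuclear receptor corepressor complexes, which remove acetyl groups from histones and which unliganded nuclear receptors and other repressors bring to their target genes.

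The round spermatid libraries held between 11205732 and 17393447 gene counts. Levels are given in CPM, a gene's counts brought to a common library size, after TMM scaling, which corrects each library's size for its composition, and the 3 values of a group are in the order replicate 1, replicate 3 and the replicate whose column matches no single title (the remaining replicate). The first principal component held 58.9% of the variance and had the 3 KO libraries on one side and the 3 control libraries on the other. The second held 22.0%, with replicate 1 of both genotypes on one side. As a check of the cell type, 24 round spermatid markers summed to between 10240 and 23440 CPM without TMM scaling in KO and between 15020 and 28630 in control round spermatids, against 1471 to 2672 in KO and 3057 to 5786 in control PS. The 18 markers of pachytene spermatocytes summed to between 4333 and 4769 in KO and between 3592 and 4017 in control round spermatids, against 6703 to 7703 in KO and 6396 to 7354 in control PS.

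Hdac3 itself, at chr18:37936971-37955015 (GRCm38, minus strand), had 13.4, 14.1 and 17.2 CPM in KO libraries, against 42.1, 48.5 and 52.7 CPM in control libraries. Every KO library lay below every control library. Its log2 fold change was -1.68 (SE 0.186, edgeR adjusted p = 0.00249), and it was -1.67 in PS. The floxed exons of Hdac3 are not known from the labels, so the counts that remain do not measure how many cells kept an intact allele.

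Among the other subunits of the complex, Tbl1x rose, beside 18.7% of all genes tested. Tbl1x, an X-linked exchange factor of the corepressor, had 14.2, 12.6 and 14.7 CPM in KO libraries, against 3.65, 2.44 and 2.68 CPM in control libraries, a log2 fold change of 2.24 (SE 0.251, edgeR adjusted p = 0.00249). The groups were far apart, with little spread within each. Ncor1, which encodes NCoR, had a log2 fold change of 0.23, Tbl1xr1, a relative of Tbl1x, of -0.20 and Gps2, a small subunit, of -0.37, and none of these passed. Gps2 passed with the replicate number as a block (adjusted p = 0.0207).

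The change in KO spermatids was broad. Of 21429 genes in the table, 15934 passed the filter on low counts, and 4942 of these (31.0%) differed between KO and control (edgeR adjusted p under 0.05). Higher in KO were 2974 (18.7%) and lower were 1968 (12.4%). In 4826 of the 4942 calls the 3 KO libraries and the 3 control libraries did not overlap. Groups that do not overlap came with nearly every call, so below they add little to it. More than 2-fold changes were seen in 2146 called genes that were higher and 542 that were lower, and more than 4-fold changes in 164 and 13. Same-numbered replicates of KO and control deviated together, and with that number taken as a block 8736 genes (54.8%) were called, 4582 higher (28.8%) and 4154 lower (26.1%), including all 4942 with the same sign. Leaving out a library gave 1546 calls without the remaining KO replicate, 2933 without control replicate 3, 2947 without KO replicate 3, 3116 without the remaining control replicate, 4146 without control replicate 1 and 6391 without KO replicate 1.

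The balance of rises and falls depended on the scaling. Of the calls, 60.2% were higher in KO. Scaled by library size alone, 4236 genes (26.6%) were higher and 779 (4.89%) lower, so that 84.5% of calls were higher, and the median log2 fold change of all genes tested was 0.27 in place of 0.02. In the authors' deposited table, 2734 genes were higher and 3447 lower at an adjusted p under 0.05, 44.2% higher. DESeq2 run here on the same counts gave 53.2% of calls higher. The authors' values can differ in more than scaling, and the reason for their share was not tested. The changes below are relative to the TMM scaling, and a list whose direction turns under scaling by library size alone is given as such.

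Rises were more frequent among weakly expressed genes and falls among strongly expressed genes. Among the 5848 genes with a mean between 1 and 10 CPM, 25.4% were higher in KO and 6.16% lower, with a median log2 fold change of 0.48. Among the 6568 genes between 10 and 100 CPM the shares were 19.6% and 14.2%, and the median was -0.03. Among the 2487 genes at 100 CPM or more, 1.81% were higher and 26.3% lower, with a median of -0.38. Shares in parentheses after a list's counts are of its tested members and stand beside 18.7% higher and 12.4% lower over all genes tested, and the lists are described, not tested.

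**Figure D1:**
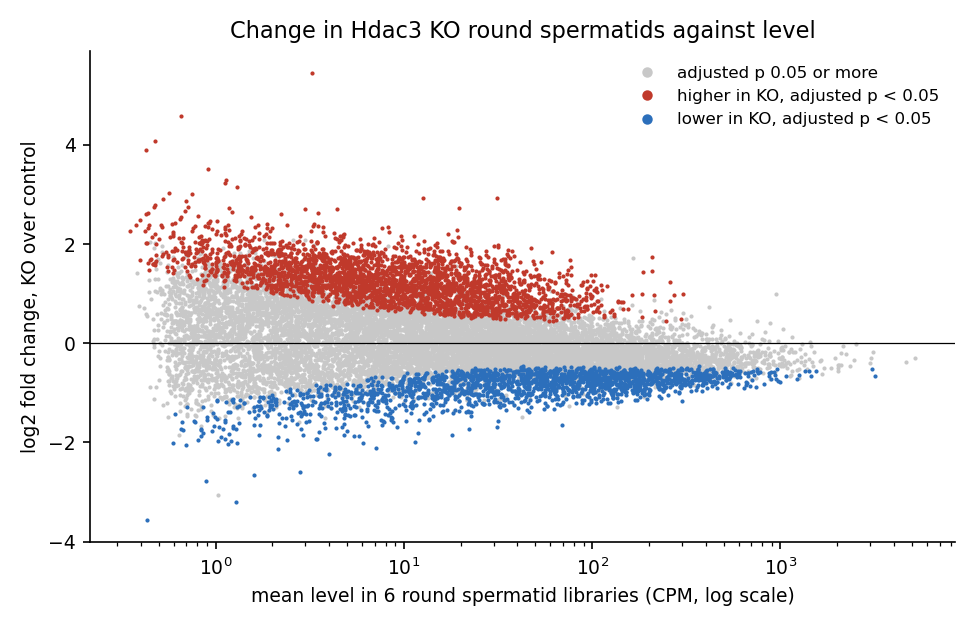
Log2 fold change of KO over control round spermatids (vertical axis) against the mean CPM of the 6 libraries (horizontal axis, log scale) for the 15934 genes tested, 1 point per gene. Among genes at 100 CPM or more, 1.81% are higher in KO (red) and 26.3% lower (blue), while between 1 and 10 CPM 25.4% are higher and 6.16% lower.

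Genes of sperm structure were lower in KO spermatids as a group. The 7 lists for the acrosome, sperm-egg interaction, fibrous sheath and outer dense fibres, axoneme, sperm ion channels, spermatid kinases and manchette held 233 tested genes. Of these 111 fell (47.6%, against 12.4% of all genes tested) and 2 rose, and 222 had a log2 fold change below 0, with a median of -0.59, against 0.02 over all genes tested. Among their 175 genes at 100 CPM or more, 84 fell (48.0%), against 26.3% of all genes at that level. Among their 51 genes between 10 and 100 CPM, 26 fell (51.0%), against 14.2%. With the replicate block 186 fell and 5 rose, and with library size alone 57 fell and 5 rose, with a median of -0.31. In PS the median log2 fold change of these genes was also below 0, at -0.31. The number that fell was 57 without KO replicate 3, 41 without the remaining KO replicate, 71 without control replicate 3 and 60 without the remaining control replicate. Of 24 round spermatid markers 12 fell (50%) and none rose, with a median of -0.76. Of 18 elongating spermatid transcripts 2 fell (11.1%, against 12.4% of all genes tested), with a median of -0.51. Of the 17 at 100 CPM or more 2 fell (11.8%), below the 26.3% of all genes at that level. Of 18 pachytene spermatocyte markers 2 rose (11.1%, against 18.7% of all genes tested), with a median of 0.13. Between 10 and 100 CPM 2 of 7 (28.6%) rose, against 19.6% of all genes at that level. At 100 CPM or more 0 of 11 rose, against 1.81%. With the block 21 round spermatid markers and 14 elongating spermatid transcripts fell and 6 pachytene markers rose and 1 fell, and with library size alone 1 elongating spermatid transcript fell and 6 pachytene markers rose. In these bulk samples, fewer cells of a stage and less RNA per cell cannot be told apart.

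**Figure D2:**
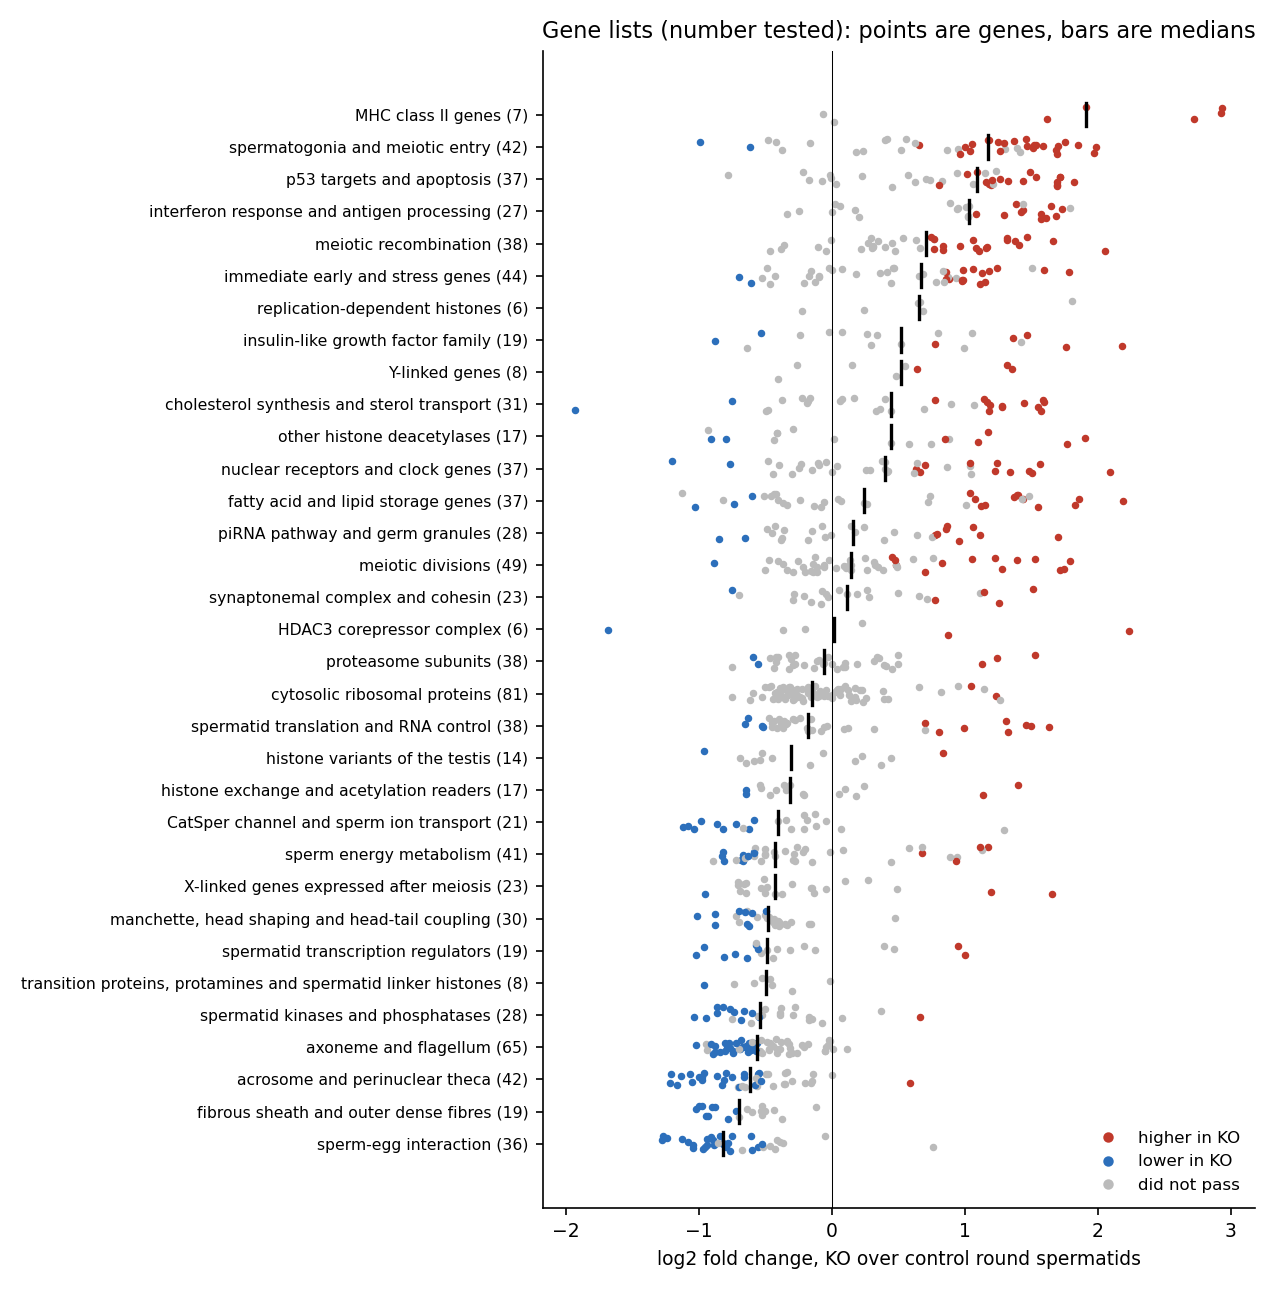
Log2 fold change of KO over control round spermatids (horizontal axis) for the tested members of each gene list other than cell type markers (rows, with the number tested), 1 point per gene, red for genes higher in KO, blue for genes lower in KO and grey for genes that did not pass, with a black bar at each list's median. The medians of the 7 sperm structure lists lie between -0.82 and -0.40, and those of the MHC class II, spermatogonial and p53 lists at 1.91, 1.18 and 1.09.

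Genes for binding and fusing with the egg had the lowest median of the 43 lists, -0.82, with 26 (72.2%) of 36 tested members lower in KO and 0 higher. Adam34, a sperm member of the ADAM family of membrane proteins, had 14.3, 13.4 and 13.3 CPM in KO libraries, against 31.0, 37.4 and 30.7 CPM in control libraries, and fell by 1.27 on the log2 scale (SE 0.179, edgeR adjusted p = 0.0031). Hyal5, a sperm hyaluronidase, had 88.7, 87.0 and 73.2 CPM in KO libraries, against 170.4, 200.2 and 155 CPM in control libraries. Its groups were as clearly separate as those of Adam34, and it fell by 1.08 (edgeR adjusted p = 0.00455). Adam29, another family member, fell by 1.27. Adam3, which mouse sperm need to enter the oviduct, averaged 1252 ± 196 CPM in KO and 1732 ± 88.3 CPM in control libraries (SD, n = 3 each) with an edgeR adjusted p of 0.0709, and it passed with the replicate block (adjusted p = 0.0147). With the block 1 rose and 34 fell, and with library size alone 1 rose and 14 fell. Falls numbered 12 with the remaining KO replicate left out and 16 with control replicate 3 or the remaining control replicate left out.

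Of 42 acrosome and perinuclear theca genes 22 (52.4%) fell and 1 (2.38%) rose, with a median of -0.62. Eqtn, which encodes the acrosomal membrane protein equatorin, had 79.8, 74.9 and 70.8 CPM in KO libraries, against 144, 216 and 161 CPM in control libraries, and fell by 1.21 on the log2 scale (SE 0.193, edgeR adjusted p = 0.0042). Spaca1, a membrane protein without which the mouse acrosome does not form normally, had 175, 168 and 139.6 CPM in KO libraries, against 291, 344 and 306 CPM in control libraries. The highest KO library of Spaca1 was well below the lowest control library, and the gene fell by 0.96. Lyzl6, a lysozyme-like protein, fell by 1.16. Gopc, a Golgi protein needed for the acrosome, rose by 0.59 (edgeR adjusted p = 0.0449), and it lost its call when any 1 library was left out. Ccdc136, the member with the most counts, had a log2 fold change of -0.20 and overlapping groups. With the block 1 rose and 35 fell, and with library size alone 1 rose and 11 fell. Called lower were 12 with KO replicate 3 or control replicate 3 left out, 6 with the remaining KO replicate left out and 11 with the remaining control replicate left out.

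In the fibrous sheath and outer dense fibres of the tail 9 (47.4%) of 19 genes fell and 0 rose, with a median of -0.70. Odf3, an outer dense fibre protein, had 132, 132 and 118 CPM in KO libraries, against 216, 301 and 258 CPM in control libraries, and fell by 1.02 on the log2 scale (SE 0.181, edgeR adjusted p = 0.00559). Spag4, a SUN domain protein, and Fsip1, a fibrous sheath partner, fell by 0.88 and 0.98. None of the 3 had overlapping groups. Odf2, the member with the most counts, had a log2 fold change of -0.37 and did not pass. With the block 0 rose and 17 fell.

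In the axoneme, the microtubule core of the tail, 28 (43.1%) of 65 genes fell and 0 rose, with a median of -0.56. Rsph14, a radial spoke protein, had 17.3, 14.4 and 15.5 CPM in KO libraries, against 32.2, 29.7 and 34.1 CPM in control libraries, and fell by 1.02 on the log2 scale (SE 0.176, edgeR adjusted p = 0.00509). Tekt5, a tektin filament protein, had 67.0, 77.1 and 69.0 CPM in KO libraries, against 124, 141 and 135 CPM in control libraries. The KO libraries of both genes lay close together and below all control libraries. Spag16, of the central pair, fell by 0.88. Dnah8, a dynein heavy chain and the member with the most counts, had 1972, 964 and 934 CPM in KO libraries, against 1971, 914 and 1025 CPM in control libraries. Replicate 1 was the highest in both genotypes, and the groups overlapped. With the block 0 rose and 51 fell, and with library size alone 0 rose and 14 fell. Counts of falls were 43 with KO replicate 1 left out, 9 with KO replicate 3 left out, 5 with the remaining KO replicate left out, 18 with control replicate 3 left out and 12 with the remaining control replicate left out.

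Among 21 genes of the CatSper calcium channel and other sperm ion transport, 9 (42.9%) fell and 0 rose, with a median of -0.40. Catsper3 and Catsper1 encode pore subunits of the channel that admits calcium during hyperactivated swimming. Catsper3 had 63.5, 61.6 and 59.5 CPM in KO libraries, against 104, 147 and 139 CPM in control libraries, and fell by 1.08 on the log2 scale (SE 0.182, edgeR adjusted p = 0.00475). Catsper1 fell by 0.98, and Lrrc52, a partner of the sperm potassium channel, by 1.04. Their groups did not overlap. Atp1a4, the sperm sodium pump and the member with the most counts, fell by 0.58 and lost its call without KO replicate 3, the remaining KO replicate, control replicate 1, control replicate 3 or the remaining control replicate, or with library size alone. With the block 1 rose and 13 fell, and with library size alone 1 rose and 5 fell. Members called lower came to 14 with KO replicate 1 left out and 5 with KO replicate 3 or the remaining KO replicate left out.

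Of 28 spermatid kinases and phosphatases 11 (39.3%) fell and 1 (3.57%) rose, with a median of -0.54. Tssk5 and Tssk4, testis-specific serine kinases, fell by 1.03 and 0.94 on the log2 scale, and Pp2d1, a phosphatase-like protein, by 0.86. Tssk5 averaged 26.3 ± 5.19 CPM in KO and 53.8 ± 1.81 CPM in control libraries (SD, n = 3 each). Stk31, a kinase-like germ cell protein, rose by 0.67 and lost its call without KO replicate 3, the remaining KO replicate, control replicate 1 or control replicate 3. Haspin, a histone H3 kinase and the member with the most counts, had a log2 fold change of -0.28 and overlapping groups. With the block 1 rose and 19 fell, and with library size alone 1 rose and 4 fell. Falls numbered 5 with KO replicate 3 left out, 6 with the remaining KO replicate or control replicate 3 left out and 7 with the remaining control replicate left out.

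In the manchette, the microtubule skirt that shapes the head, and in head-tail coupling, 9 (30%) of 30 genes fell and 0 rose, with a median of -0.48. Sun5, which anchors the tail to the head, had 93.6, 86.2 and 77.8 CPM in KO libraries, against 154, 190.1 and 176 CPM in control libraries, and fell by 1.01 on the log2 scale (SE 0.171, edgeR adjusted p = 0.00471). All KO libraries of Sun5 lay below all control libraries. Meig1, a manchette protein and the member with the most counts, had a log2 fold change of -0.70 and overlapping groups, and passed only with the block (adjusted p = 0.00412). With the block 1 rose and 25 fell, and with library size alone 1 rose and 4 fell. Called lower were 19 with KO replicate 1 left out, 3 with KO replicate 3 or the remaining control replicate left out, 4 with the remaining KO replicate left out and 5 with control replicate 1 left out.

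Regulators that drive spermatid transcription were among the falls. CREM and its coactivator FHL5 (also called ACT) switch on many genes of the round spermatid, and SOX5 and RFX factors are known to act on genes of cilia and tails. Sox5 had 129, 142 and 114 CPM in KO libraries, against 210.5, 291 and 248 CPM in control libraries, and fell by 0.96 on the log2 scale (SE 0.185, edgeR adjusted p = 0.00704). Fhl5 had 81.0, 108 and 90.6 CPM in KO libraries, against 149, 242 and 178 CPM in control libraries, and fell by 1.02 (edgeR adjusted p = 0.00941). KO and control did not overlap for either. Crem had 217, 197 and 159.9 CPM in KO libraries, against 309, 393 and 305 CPM in control libraries, and fell by 0.81, a call lost without the remaining KO replicate. In all, 7 (36.8%) of 19 regulators fell and 2 (10.5%) rose, with a median of -0.49. With the block 4 rose and 13 fell, and with library size alone 3 rose and 3 fell. At 100 CPM or more 6 of 13 (46.2%) fell, against 26.3% of all genes at that level. Those that rose, Taf4b (1.0) and Taf7l (0.95), are germ cell variants of general transcription factor subunits. Spz1, a transcription factor with the most counts of the list, had a log2 fold change of -0.57 and overlapping groups, and passed only with the block (adjusted p = 0.00913). Counts of falls were 4 with KO replicate 3 or the remaining control replicate left out, 2 with the remaining KO replicate left out and 3 with control replicate 3 left out.

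Promoters of the genes that fell differed in composition from those of all genes. RefSeq promoters on GRCm38.p6, from 250 bases before to 50 bases after the start that the table uses, were found for 1523 of the 1968 genes that fell, 2373 of the 2974 that rose and 12431 of the 15934 tested. Each word was searched on both strands. The RFX word GTTGCC was held by 19.2% of promoters of genes that fell, 9.86% of those that rose and 13.7% of all. The SOX core ACAAT was held by 33.3% of promoters of genes that fell, 18.3% of those that rose and 22.9% of all. Median GC content was 53.7%, 62.3% and 59.7% in the same order, and its part in the shares was not tested. The short CRE word TGACG was held by 24.4%, 30.4% and 29.1%, and the full site TGACGTCA, which contains it, by 3.61%, 3.08% and 3.03%. The promoters of Odf3 (chr7:140847666-140847965, plus strand), Spag16 (chr1:69826720-69827019, plus strand) and Sox5 (chr6:143947057-143947356, minus strand) are shown as those of sperm genes that fell and hold GTTGCC, a choice made after their values were seen. Capitals mark GTTGCC or its complement GGCAAC, and ACAAT or its complement ATTGT.
Odf3: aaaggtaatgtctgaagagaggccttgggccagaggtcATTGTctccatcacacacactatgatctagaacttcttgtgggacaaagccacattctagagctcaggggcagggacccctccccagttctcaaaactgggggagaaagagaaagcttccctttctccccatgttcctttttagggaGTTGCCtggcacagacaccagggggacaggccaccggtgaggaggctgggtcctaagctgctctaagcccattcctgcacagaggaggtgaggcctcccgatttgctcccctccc
Spag16: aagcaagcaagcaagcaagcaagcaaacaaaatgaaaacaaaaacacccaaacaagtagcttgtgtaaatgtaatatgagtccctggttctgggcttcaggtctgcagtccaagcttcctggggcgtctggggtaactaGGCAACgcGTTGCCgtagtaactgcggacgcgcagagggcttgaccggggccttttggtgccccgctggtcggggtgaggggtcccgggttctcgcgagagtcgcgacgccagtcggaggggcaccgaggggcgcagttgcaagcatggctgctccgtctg
Sox5: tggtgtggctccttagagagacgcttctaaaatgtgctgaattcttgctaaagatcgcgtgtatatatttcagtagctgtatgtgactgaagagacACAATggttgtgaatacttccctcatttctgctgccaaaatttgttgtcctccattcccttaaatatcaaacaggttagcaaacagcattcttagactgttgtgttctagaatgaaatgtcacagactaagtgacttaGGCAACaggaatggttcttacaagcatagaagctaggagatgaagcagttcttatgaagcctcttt
Odf3 held GTTGCC 65 bases before its start and the SOX core 212 bases before it. Spag16 held the RFX word at 111 and 103 bases before the start. In Sox5 the RFX word lay 16 bases and the SOX core 154 bases before the start. Sox5 spans chr6:143828425-144782287 on the minus strand, so the start used here lies inside the gene and not at its outermost 5' end. These matches describe the sequence and show no binding.

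Transcripts for packaging the nucleus were less clear. Of 8 transition protein, protamine and spermatid linker histone genes, 1 (12.5%) fell and 0 rose, with a median of -0.49. Hils1, a spermatid linker histone, had 203, 292 and 282 CPM in KO libraries, against 352, 681 and 477 CPM in control libraries, a log2 fold change of -0.96 (SE 0.255, edgeR adjusted p = 0.0203) whose call was lost without the remaining KO replicate or control replicate 3, or with library size alone. Prm2, which encodes protamine 2, had 2188, 6169 and 5676 CPM in KO libraries, against 3542, 9584 and 4099 CPM in control libraries. Replicate 1 was the lowest library in both genotypes, and the groups overlapped. Tnp1, the first transition protein, had 72.9, 224 and 2030 CPM in KO libraries, against 137, 480.0 and 1730 CPM in control libraries. The remaining replicate was the highest in both genotypes, and the spread between replicates exceeded any difference between the groups. Under the block 4 of the 8 fell, Tnp1 among them (adjusted p = 0.0315) and Prm2 not (adjusted p = 0.268). In PS the median of the same list was -1.51.

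Histone exchange factors and readers of acetylation gave 2 (11.8%) rises and 2 (11.8%) falls among 17, with a median of -0.32. Trrap, a subunit of acetyltransferase complexes, had 69.2, 66.6 and 104 CPM in KO libraries, against 48.9, 21.2 and 38.8 CPM in control libraries, and rose by 1.14 on the log2 scale (SE 0.297, edgeR adjusted p = 0.019). Its groups did not overlap, and it lost its call without the remaining KO replicate or the remaining control replicate. Cdyl, a chromodomain protein, fell by 0.65 and lost its call without KO replicate 3 or the remaining control replicate, or with library size alone. Phf7, a histone reader of spermatids and the member with the most counts, had a log2 fold change of -0.35 and did not pass (edgeR adjusted p = 0.151). With the block 2 rose and 8 fell, and with library size alone 2 rose and 0 fell. Rises numbered 1 with the remaining KO replicate or the remaining control replicate left out, and the number that fell 6 with KO replicate 1 left out, 0 with KO replicate 3 or the remaining control replicate left out and 1 with the remaining KO replicate, control replicate 1 or control replicate 3 left out. Of 14 histone variants of the testis 1 (7.14%) rose and 1 (7.14%) fell, with a median of -0.30. With the block 2 rose and 5 fell, and with library size alone 1 rose and 0 fell. The rise was lost without KO replicate 3, the remaining KO replicate or any 1 control library, and the fall without the remaining KO replicate or control replicate 3. None of the 6 replication-dependent histone genes tested passed in edgeR, where 1 had an unadjusted p under 0.05 and 1 passed with the block.

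Among 17 other deacetylases, 5 (29.4%) rose and 2 (11.8%) fell, with a median of 0.44. Hdac6, a cytoplasmic tubulin deacetylase, had 49.3, 56.9 and 72.6 CPM in KO libraries, against 15.7, 16 and 20.9 CPM in control libraries, a log2 fold change of 1.77 (SE 0.209, edgeR adjusted p = 0.00249). Sirt1, a nuclear NAD-dependent deacetylase, averaged 46.0 ± 4.0 CPM in KO and 20.4 ± 0.440 CPM in control libraries (SD, n = 3 each), and Sirt2, a mainly cytoplasmic one, 176 ± 9.92 CPM in KO and 97.2 ± 1.06 CPM in control libraries (SD, n = 3 each). The groups did not overlap for any of these. Sirt4, a mitochondrial sirtuin, fell by 0.91 on the log2 scale and lost its call without KO replicate 3, the remaining KO replicate or control replicate 3. Hdac11, the class IV deacetylase, fell by 0.79 and lost its call without KO replicate 3 or the remaining control replicate, or with library size alone. Hdac1, a class I deacetylase and the member with the most counts, had a log2 fold change of -0.29 and did not pass. With the block 6 rose and 5 fell, and with library size alone 6 rose and 1 fell. Called higher were 3 with the remaining KO replicate or control replicate 3 left out, and the number that fell 4 with KO replicate 1 left out, 0 with KO replicate 3 left out and 1 with the remaining KO replicate, control replicate 3 or the remaining control replicate left out.

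In energy metabolism 10 (24.4%) of 41 genes fell and 4 (9.76%) rose, with a median of -0.43. At 100 CPM or more 8 of 28 (28.6%) fell, against 26.3% of all genes at that level, and the balance of the list turned to more rises than falls with library size alone. Slc16a7, the lactate and pyruvate carrier MCT2, had 402, 394 and 369 CPM in KO libraries, against 669.7, 760.0 and 626 CPM in control libraries, and fell by 0.82 on the log2 scale (SE 0.167, edgeR adjusted p = 0.00827). Gykl1, a testis glycerol kinase-like gene, fell by 0.82 and lost its call without the remaining KO replicate, and Aldoart1, a sperm aldolase, fell by 0.69 and lost its call without KO replicate 3, or with library size alone. Ldhc, the sperm lactate dehydrogenase, had 2577, 2400 and 2369 CPM in KO libraries, against 3134, 4473 and 4077 CPM in control libraries. Its groups did not overlap and it fell by 0.67, a call lost without KO replicate 3, the remaining KO replicate, control replicate 3 or the remaining control replicate, or with library size alone. The 3 of lowest adjusted p that rose are widely expressed forms: Gapdh (1.17), Slc16a1 (1.12), the carrier MCT1, and Pgam1 (0.93), whose call was lost without KO replicate 3, the remaining KO replicate or the remaining control replicate. Gapdh and Pgam1 have processed copies in the genome, so their counts are uncertain. With the block 10 rose and 21 fell, and with library size alone 8 rose and 3 fell. Members called lower came to 4 with KO replicate 3 or the remaining control replicate left out, 3 with the remaining KO replicate left out and 6 with control replicate 3 left out, and the number that rose 9 with KO replicate 1 left out and 2 with KO replicate 3, the remaining KO replicate or the remaining control replicate left out.

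Among 38 genes of RNA binding and translational control 8 (21.1%) rose and 4 (10.5%) fell. Both shares are near those over all genes tested, but not near those of genes at the same level. At 100 CPM or more 2 of 22 (9.09%) rose, against 1.81% of all genes at that level, and 3 (13.6%) fell, against 26.3%. Between 10 and 100 CPM 4 of 14 (28.6%) rose, against 19.6%, and 1 (7.14%) fell, against 14.2%. Dazl, a germ cell RNA binding protein that acts up to meiosis, had 279, 332 and 302 CPM in KO libraries, against 81.2, 127 and 125 CPM in control libraries, and rose by 1.46 on the log2 scale (SE 0.21, edgeR adjusted p = 0.00323). Celf1, an RNA binding protein, rose by 1.31 and Cpeb1, which controls polyadenylation in the cytoplasm, by 1.33. In all 3 the lowest KO library was above the highest control library. Cpeb2, of the same family as Cpeb1, fell by 0.63, a call lost without KO replicate 3, the remaining KO replicate or the remaining control replicate, or with library size alone. Adad1, a testis RNA binding protein, fell by 0.66, a call lost without KO replicate 3, the remaining KO replicate, control replicate 3 or the remaining control replicate, or with library size alone. The median of the list was -0.18 and turned to 0.06 with library size alone. With the block 10 rose and 14 fell, and with library size alone 10 rose and 0 fell. Falls numbered 11 with KO replicate 1 left out, 0 with KO replicate 3, the remaining KO replicate or the remaining control replicate left out and 1 with control replicate 3 left out.

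Genes of meiotic recombination were higher in KO spermatids, with 18 (47.4%) of 38 called higher, 0 lower and a median of 0.70. Atm, the kinase that senses double-strand breaks, had 97.4, 56.3 and 66.4 CPM in KO libraries, against 25.5, 19.3 and 24.6 CPM in control libraries, and rose by 1.67 on the log2 scale (SE 0.232, edgeR adjusted p = 0.00307). Tex11, an X-linked crossover factor, had 57.4, 45.7 and 50.3 CPM in KO libraries, against 16.2, 24.3 and 21.1 CPM in control libraries, and rose by 1.32. Groups of both genes did not overlap. Of the 23 members between 10 and 100 CPM 13 rose (56.5%), against 19.6% of all genes at that level, and of the 6 at 100 CPM or more none did. Rpa1, a single-strand binding protein with the most counts of the list, had a log2 fold change of 0.31 and overlapping groups. With the block 24 rose and 3 fell. Counts of rises were 7 with the remaining KO replicate left out and 9 with control replicate 3 left out.

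Of 23 synaptonemal complex and cohesin genes 4 (17.4%) rose and 1 (4.35%) fell, with a median of 0.11. The share that rose is below that over all genes tested, but the list holds many strongly expressed genes. Between 10 and 100 CPM 3 of 7 (42.9%) rose, against 19.6% of all genes at that level. At 100 CPM or more 0 of 12 rose, against 1.81%. Rad21l, a meiotic cohesin subunit, had 14.7, 9.53 and 8.21 CPM in KO libraries, against 2.46, 4.02 and 4.95 CPM in control libraries, and rose by 1.51 on the log2 scale (SE 0.33, edgeR adjusted p = 0.0103). Smc1a, a cohesin subunit of somatic cells, rose by 1.14. Both had separate groups. Rec8, also a meiotic cohesin subunit, fell by 0.75 and lost its call without KO replicate 3, the remaining KO replicate or the remaining control replicate. Stag3, a meiotic cohesin subunit with the most counts of the list, had a log2 fold change of -0.08. With the block 7 rose and 2 fell, and with library size alone 8 rose and 1 fell. Members called higher came to 7 with KO replicate 1 left out.

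Genes of the meiotic divisions gave 13 (26.5%) rises and 1 (2.04%) fall among 49, with a median of 0.14. Between 10 and 100 CPM 8 of 28 (28.6%) rose, against 19.6% of all genes at that level, and at 100 CPM or more 1 of 16 (6.25%) rose, with a median of -0.12. Ccne2, a cyclin of S phase entry that also acts in meiosis, had 44.2, 50.6 and 34.4 CPM in KO libraries, against 9.38, 15.7 and 13.6 CPM in control libraries, and rose by 1.75 on the log2 scale (SE 0.238, edgeR adjusted p = 0.00303). Ccna2, a mitotic cyclin, rose by 1.23 and Cdc25b, a phosphatase that activates cyclin-dependent kinases, by 1.72. None of the 3 had overlapping groups. Meikin, a meiosis I kinetochore protein, fell by 0.88, a call lost without the remaining KO replicate or control replicate 3, or with library size alone. Hspa2, a chaperone of meiosis and the member with the most counts, had a log2 fold change of -0.12. With the block 21 rose and 5 fell, and with library size alone 19 rose and 0 fell. Rises numbered 7 with KO replicate 3 left out, 5 with the remaining KO replicate left out and 8 with the remaining control replicate left out.

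In the piRNA pathway, which silences transposons in germ cells, 8 (28.6%) of 28 genes rose and 2 (7.14%) fell, with a median of 0.16. Btbd18, a factor for transcription of piRNA precursors, rose by 1.06 on the log2 scale, a call lost without the remaining KO replicate. Mov10l1, a piRNA helicase, rose by 0.85, a call lost without the remaining KO replicate or control replicate 3. Gtsf1, a cofactor of Piwi proteins, fell by 0.85, a call lost without the remaining KO replicate, control replicate 3 or the remaining control replicate, or with library size alone. Mael, a nuage protein and the member with the most counts, had a log2 fold change of -0.38 and passed only with the block (adjusted p = 0.0433). With the block 11 rose and 8 fell, and with library size alone 10 rose and 0 fell. Called higher were 3 with KO replicate 3 or control replicate 3 left out, 0 with the remaining KO replicate left out and 5 with control replicate 1 left out.

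Genes of spermatogonia and of entry into meiosis were mostly higher in KO spermatids, with 24 (57.1%) of 42 called higher, 2 (4.76%) lower and a median of 1.18. Mcm2, a subunit of the replication helicase, had 45.3, 45.2 and 61.0 CPM in KO libraries, against 10.6, 12.7 and 14.8 CPM in control libraries, and rose by 1.99 on the log2 scale (SE 0.208, edgeR adjusted p = 0.00249). Dnmt1, the maintenance DNA methyltransferase, had 121, 91.1 and 138 CPM in KO libraries, against 33.6, 32.6 and 42.5 CPM in control libraries, and rose by 1.69. Kit, the receptor for stem cell factor on differentiating spermatogonia, had 39.9, 35.2 and 49.4 CPM in KO libraries, against 13.3, 14.9 and 16.9 CPM in control libraries. In each of the 3 genes the KO libraries lay clear of the control libraries. Tcf3, a bHLH transcription factor, rose by 1.85 and Stra8, the retinoic acid target whose promoter drives Cre in the KO, by 1.46. Dmrt1 and Sall4, transcription factors of spermatogonia, rose by 1.52 and 1.97. Dnmt3l, a partner of de novo DNA methyltransferases, fell by 0.99, a call lost without the remaining KO replicate. Ccnd3, a D-type cyclin, fell by 0.62, a call lost without KO replicate 3, the remaining KO replicate, control replicate 3 or the remaining control replicate, or with library size alone. Of the 18 members between 10 and 100 CPM 13 rose (72.2%), against 19.6% of all genes at that level. With library size alone 28 rose and 1 fell. Counts of rises were 15 with the remaining KO replicate left out.

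Markers of spermatogonia were counted separately, since cells of that stage could be in the samples. Of 11 tested, 7 (63.6%) rose and 0 fell, with a median of 1.25. Zbtb16, Sohlh1, Uchl1 and Etv5, also known from spermatogonia, rose by 1.70, 1.05, 1.25 and 1.51 on the log2 scale. Zbtb16, Uchl1 and Etv5 lost their calls without the remaining KO replicate, and Sohlh1 without KO replicate 3, the remaining KO replicate, control replicate 1 or the remaining control replicate. Gfra1 (0.42) and Id4 (0.55), which mark spermatogonial stem cells, Nanos3 (-0.48) and Dmrtb1 (-0.38) did not pass. The 12 markers summed to between 803 and 939.9 CPM in KO and between 846 and 1100 CPM in control libraries, so the groups overlapped. Dmrtb1 made up most of each sum, with 802, 706 and 568 CPM in KO and 781, 1016 and 901 CPM in control libraries. The sums therefore mainly follow this gene and say little about the other members. Without TMM scaling the sums were 908 to 1028 in KO and 783 to 959 in control libraries. Members called higher came to 3 with the remaining KO replicate left out. The part of spermatogonia in these rises was not tested.

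Genes regulated by p53 and genes of apoptosis gave 18 (48.6%) rises and 0 falls among 37, with a median of 1.09. Trp53inp1, a p53 target that promotes cell death and autophagy, had 28.9, 26.6 and 33.5 CPM in KO libraries, against 9.95, 8.5 and 9.0 CPM in control libraries, and rose by 1.70 on the log2 scale (SE 0.192, edgeR adjusted p = 0.00249). Ccng1, which encodes cyclin G1, had 13.3, 16.6 and 14.8 CPM in KO libraries, against 5.10, 4.48 and 4.22 CPM in control libraries, and rose by 1.69. Aen, a nuclease of apoptosis, rose by 1.54. Groups did not overlap in any of these. Mdm2, the ubiquitin ligase of p53 and the member with the most counts, had a log2 fold change of -0.01 (SE 0.174) and overlapping groups. Of the 26 members between 1 and 10 CPM 14 rose (53.8%), against 25.4% of all genes at that level. Under the block 24 rose. Rises numbered 10 with KO replicate 3 left out, 9 with the remaining KO replicate left out and 11 with control replicate 3 left out.

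Of 44 immediate early and stress genes 15 (34.1%) rose and 2 (4.55%) fell, with a median of 0.67. Klf6, an early response transcription factor, had 14.8, 20.6 and 23.8 CPM in KO libraries, against 6.92, 5.67 and 6.97 CPM in control libraries, and rose by 1.6 on the log2 scale (SE 0.239, edgeR adjusted p = 0.00353). Hsp90ab1, a chaperone, rose by 0.98. Both had separate groups. Asns, asparagine synthetase, fell by 0.61, a call lost without the remaining KO replicate, control replicate 3 or the remaining control replicate, or with library size alone. Egr3, an early response factor, fell by 0.70, a call lost without KO replicate 3, the remaining KO replicate, control replicate 1 or the remaining control replicate, or with library size alone. Hsp90aa1, a chaperone with the most counts of the list, had a log2 fold change of -0.21 and did not pass. With the block 26 rose and 5 fell, and with library size alone 24 rose and 0 fell. Called higher were 24 with KO replicate 1 left out, 7 with KO replicate 3 or control replicate 3 left out, 4 with the remaining KO replicate left out and 6 with the remaining control replicate left out.

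Of 37 fatty acid and lipid storage genes, a group HDAC3 is known to control in mouse liver, 12 (32.4%) rose and 3 (8.11%) fell, with a median of 0.24. Mlxipl, the glucose-responsive factor ChREBP, had 7.19, 6.42 and 9.79 CPM in KO libraries, against 1.51, 1.58 and 2.03 CPM in control libraries, and rose by 2.19 on the log2 scale (SE 0.299, edgeR adjusted p = 0.00303). Acly, which makes cytosolic acetyl-CoA, had 50.2, 61.4 and 78.2 CPM in KO libraries, against 25.7, 23.1 and 23.2 CPM in control libraries, and rose by 1.40. The controls of both were tightly grouped below every KO library. Ppard, a fatty acid receptor, rose by 1.83. Plin2, a lipid droplet coat protein, had 43.6, 45.1 and 36.6 CPM in KO libraries, against 82.4, 93.3 and 80.7 CPM in control libraries, and fell by 1.03 (edgeR adjusted p = 0.00433). Its groups did not overlap. Dgat2, a triglyceride synthase, fell by 0.73, a call lost without the remaining KO replicate. Fabp9, a fatty acid binding protein of the testis with the most counts of the list, had a log2 fold change of -0.44 and overlapping groups, and passed only with the block (adjusted p = 0.0267). With the block 15 rose and 11 fell. Counts of rises were 7 with the remaining KO replicate left out.

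Of 31 genes of cholesterol synthesis and sterol transport 12 (38.7%) rose and 2 (6.45%) fell, with a median of 0.45. Npc1, which carries cholesterol out of lysosomes, had 16.2, 13.0 and 16.2 CPM in KO libraries, against 5.04, 5.87 and 5.76 CPM in control libraries, and rose by 1.44 on the log2 scale. Hsd17b7, an enzyme of cholesterol synthesis, rose by 1.55. Cyp51, the lanosterol demethylase, averaged 53.2 ± 1.74 CPM in KO and 89.4 ± 4.55 CPM in control libraries (SD, n = 3 each) and fell by 0.75 (edgeR adjusted p = 0.0087). Groups of Npc1 and Cyp51 did not overlap. Fdft1, squalene synthase and the member with the most counts, had a log2 fold change of -0.49 and passed only with the block (adjusted p = 0.0139). With the block 17 rose and 5 fell. Members called higher came to 7 with the remaining KO replicate left out.

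Nuclear receptors, many of which dock on the corepressor, and clock genes gave 11 (29.7%) rises and 2 (5.41%) falls among 37, with a median of 0.40. Between 1 and 10 CPM 3 of 13 (23.1%) rose, against 25.4% of all genes at that level, and between 10 and 100 CPM 6 of 19 (31.6%), against 19.6%. Clock, an activator of the circadian loop, had 48.0, 47.5 and 46.6 CPM in KO libraries, against 17.8, 14.5 and 17.8 CPM in control libraries, and rose by 1.5 on the log2 scale (SE 0.172, edgeR adjusted p = 0.00249). Its 3 KO values were nearly equal. Nr1d2, the clock repressor REV-ERB beta, had 32.3, 30.6 and 34.0 CPM in KO libraries, against 11.8, 15.8 and 13.4 CPM in control libraries, and rose by 1.24. Nr2f6, an orphan receptor, rose by 1.57. Nr2c1, also an orphan receptor, fell by 0.77, a call lost without the remaining KO replicate, and Ppargc1a, a coactivator, fell by 1.20, a call lost without KO replicate 3, the remaining KO replicate or control replicate 3. Nr6a1, a germ cell receptor and the member with the most counts, had a log2 fold change of -0.45, passing only with the block (adjusted p = 0.00918). With the block 17 rose and 4 fell. Rises numbered 5 with KO replicate 3 or the remaining KO replicate left out, 6 with control replicate 3 left out and 7 with the remaining control replicate left out.

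The insulin-like growth factor family gave 5 (26.3%) rises and 2 (10.5%) falls among 19, with a median of 0.52. Igf1r, the receptor for both growth factors, had 18, 18.8 and 29.9 CPM in KO libraries, against 7.93, 6.86 and 9.25 CPM in control libraries, and rose by 1.47 on the log2 scale (SE 0.254, edgeR adjusted p = 0.00511). Igf2r, which clears IGF2, rose by 1.36. Groups of both receptors did not overlap. Insl6, an insulin-like peptide of male germ cells, fell by 0.88, a call lost without the remaining KO replicate. Members of the family that rose numbered 8 and those that fell 3 with the block, against 5 and 1 with library size alone. Called higher were 8 with KO replicate 1 left out, 3 with KO replicate 3 or control replicate 1 left out and 2 with the remaining KO replicate or control replicate 3 left out.

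Of 81 ribosomal protein genes 2 (2.47%) rose and 0 fell, with a median of -0.15, which turned to 0.13 with library size alone. With the block 10 rose and 11 fell, and with library size alone 6 rose and 0 fell. Rpl10 and Rpl10a, the members that rose, lost their calls, the first without KO replicate 3 or the remaining KO replicate and the second without KO replicate 3, the remaining KO replicate, control replicate 1 or the remaining control replicate. Ribosomal protein genes have many processed copies in the genome, so their counts are uncertain. Of 38 proteasome genes 3 (7.89%) rose and 2 (5.26%) fell, with a median of -0.06, which turned to 0.20 with library size alone. Psme1 (1.52) and Psme2 (1.24) encode the interferon-inducible activator and Psma7 (1.13) a core subunit. The call of Psme1 was lost without the remaining KO replicate, that of Psme2 without KO replicate 3, the remaining KO replicate or control replicate 1 and that of Psma7 without KO replicate 3, the remaining KO replicate or the remaining control replicate. With the block 10 rose and 8 fell, and with library size alone 7 rose and 0 fell.

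Immune genes led the largest rises. The 12 largest were Mgl2, H2-Eb1, Cd74, H2-Aa, Plk5, Cd83, Lcor, Ppp1r1b, Efna2, Il1b, Rel and Patz1, with log2 fold changes from 2.32 to 5.45, and each passed with any 1 of the 6 libraries left out. Mgl2, a sugar-binding receptor of macrophages and dendritic cells, had 7.71, 5.86 and 5.61 CPM in KO libraries, against 0, 0.264 and 0.162 CPM in control libraries. These values rest on 320 counts in the KO libraries and 6 in the control libraries. Cd74, the invariant chain that guards the groove of MHC class II molecules, had 51.2, 54.6 and 60.2 CPM in KO libraries, against 4.16, 11.2 and 6.41 CPM in control libraries, a log2 fold change of 2.93 (SE 0.317, edgeR adjusted p = 0.00249). H2-Aa, a class II alpha chain, had 27.0, 36 and 39.7 CPM in KO libraries, against 1.89, 9.29 and 4.30 CPM in control libraries. In both, control replicate 3 was the highest control and was still below every KO library. The promoters of Mgl2 (chr11:70130107-70130406, plus strand) and H2-Eb1 (chr17:34305617-34305916, plus strand) are shown as those of the 2 largest rises in the promoter table. Capitals mark CCAAT or its complement ATTGG, a word known as the Y box of class II promoters, whose search was added after the data were seen.
Mgl2: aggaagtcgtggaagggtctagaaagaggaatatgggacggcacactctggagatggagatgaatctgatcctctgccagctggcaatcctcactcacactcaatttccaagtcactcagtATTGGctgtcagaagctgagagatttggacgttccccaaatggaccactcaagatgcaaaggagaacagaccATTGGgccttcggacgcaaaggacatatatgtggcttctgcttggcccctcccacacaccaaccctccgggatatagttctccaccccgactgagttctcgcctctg
H2-Eb1: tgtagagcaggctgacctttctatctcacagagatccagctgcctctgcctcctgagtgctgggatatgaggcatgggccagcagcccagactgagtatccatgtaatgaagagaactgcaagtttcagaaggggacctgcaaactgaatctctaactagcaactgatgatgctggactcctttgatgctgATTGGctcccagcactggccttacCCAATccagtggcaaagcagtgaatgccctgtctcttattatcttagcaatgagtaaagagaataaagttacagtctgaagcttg
Mgl2 held it 129 and 57 bases before the start and H2-Eb1 59 and 35 bases before it. CCAAT was held by 39.2% of promoters of genes that rose, 39.5% of those that fell and 38.8% of all. The promoters of Fcmr and Col9a1, of the 2 largest falls, held none of the 5 words searched.

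The other large rises had various roles. Plk5, a polo-like kinase family member, had 9.38, 7.18 and 6.24 CPM in KO libraries, against 0.755, 0.857 and 1.95 CPM in control libraries, a log2 fold change of 2.70 (SE 0.393, edgeR adjusted p = 0.00334). Lcor, a ligand-dependent nuclear receptor corepressor, averaged 5.64 ± 1.32 CPM in KO and 1.05 ± 0.868 CPM in control libraries (SD, n = 3 each). Patz1, a zinc finger transcription factor, had 9.49, 12.2 and 16.3 CPM in KO libraries, against 1.83, 3.43 and 2.35 CPM in control libraries. All 3 were low in control spermatids and higher in each KO library. Ppp1r1b, a phosphatase inhibitor, and Efna2, an ephrin ligand, had log2 fold changes of 2.36 and 2.36. Cd83, a marker of mature dendritic cells, had one of 2.63, Rel, an NF-kappaB subunit, of 2.34 and Il1b, a cytokine, of 2.34.

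**Figure D3:**
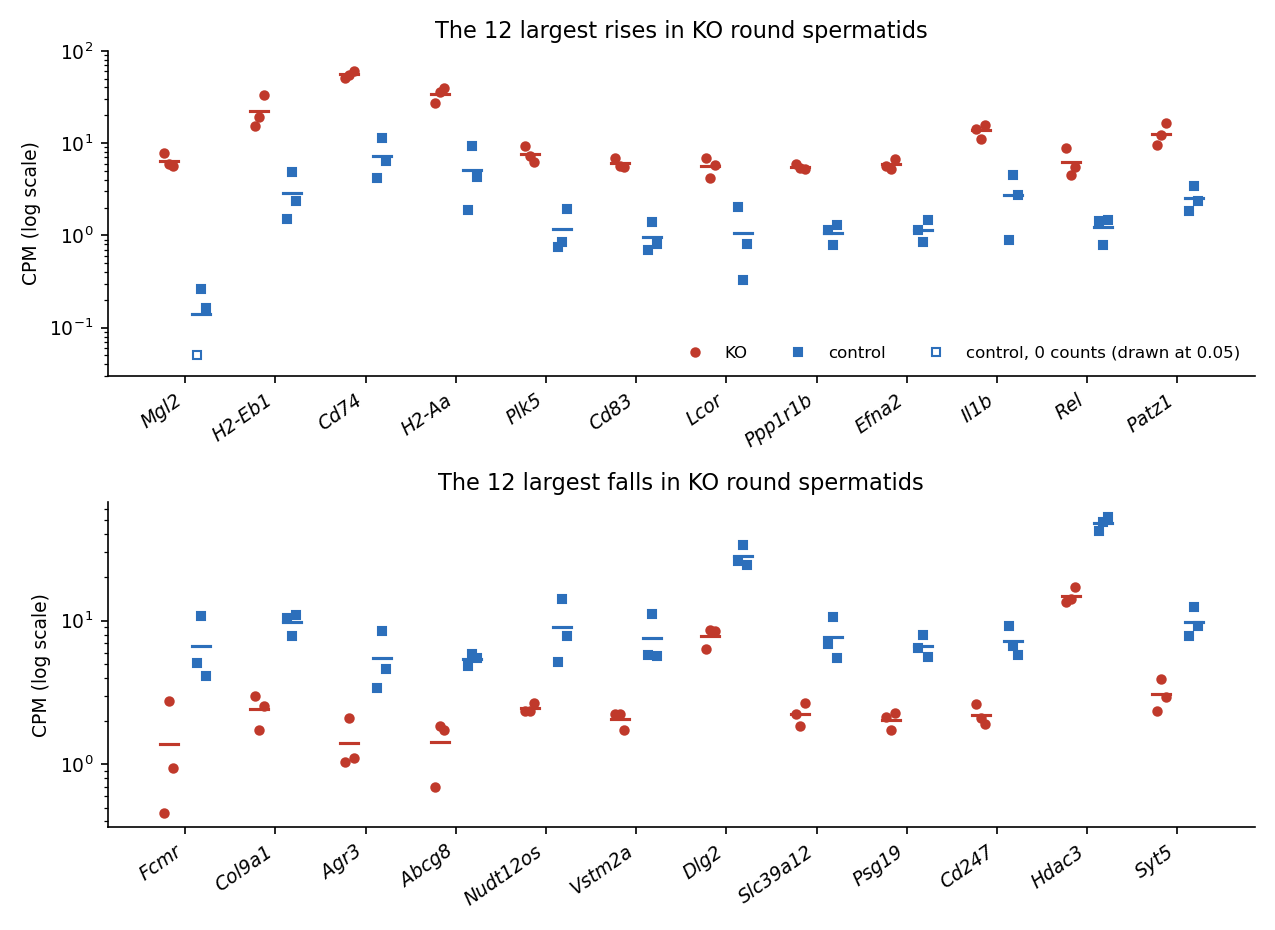
CPM (vertical axes, log scale) of the 12 largest rises (top) and the 12 largest falls (bottom) in KO round spermatids, 1 point per library, red circles for KO and blue squares for control, with bars at group means. The groups do not overlap in any of these genes, which the rule for choosing them required, and the open square marks Mgl2 at 0 counts in control replicate 1, drawn at 0.05 CPM.

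The MHC class II list, whose products present peptides to helper T cells, gave 5 (71.4%) rises among 7 tested genes, with a median of 1.91, and 5 rose without any 1 library. They were Cd74, H2-Aa, H2-Ab1, H2-Eb1 and Ctss, the protease that trims the invariant chain (1.62), while H2-DMa (-0.07) and H2-DMb1 (0.02), which load peptides, did not pass. H2-Ab1, a class II beta chain, had 29.7, 39.8 and 36.6 CPM in KO libraries, against 6.30, 13.2 and 8.76 CPM in control libraries. Its groups did not overlap. Ciita, the class II transactivator, was too low to be tested, at 0.978, 0.510 and 0.790 CPM in KO libraries, against 0.126, 0.0659 and 0.162 CPM in control libraries. Macrophage markers moved with these genes. Of 16 such markers, H2-Ab1 and Cd74 among them, 13 (81.2%) rose and 0 fell, with a median of 1.36, and they summed to 237, 310.5 and 327 CPM in KO libraries, against 95.8, 118 and 87.4 CPM in control libraries. The sums of the groups did not overlap. Csf1r, the growth factor receptor of macrophages, rose by 1.5, C1qa, a complement chain, by 1.49, and Cd14, a receptor for lipopolysaccharide, by 2.17 on the log2 scale. Cd163 (0.67), a scavenger receptor, Adgre1 (0.48), which encodes F4/80, and Fcer1g (1.36), a receptor chain, did not pass, and Fcer1g passed with the block (adjusted p = 0.00163). No macrophage marker was at 0 in either group. Their part in the rise of class II and other immune genes was not tested. The number of macrophage markers that rose was 7 with the remaining KO replicate left out.

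Of 27 genes of the interferon response and antigen processing 11 (40.7%) rose and 0 fell, with a median of 1.03. H2-K1, a class I heavy chain with near-identical family members, had 152, 130.4 and 145 CPM in KO libraries, against 40.4, 53.6 and 70.3 CPM in control libraries, and rose by 1.38 on the log2 scale (SE 0.217, edgeR adjusted p = 0.00398). Its groups were separate, though the family makes its counts uncertain. Irf9, a subunit of the interferon-activated factor ISGF3, rose by 1.69. Tap2, a peptide transporter, rose by 1.44, a call lost without KO replicate 3, the remaining KO replicate, control replicate 1 or control replicate 3. The list summed to 277, 316 and 354 CPM in KO libraries, against 157, 178 and 195 CPM in control libraries, and it moved with the macrophage markers, whose part was not tested. Under the block 15 rose. Counts of rises were 4 with KO replicate 3 or the remaining control replicate left out, 2 with the remaining KO replicate left out and 5 with control replicate 1 or control replicate 3 left out.

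Markers of other somatic cells of the testis differed between the KO libraries. The 28 Sertoli cell markers summed to 154, 588 and 357 CPM in KO libraries, against 139.8, 156 and 211 CPM in control libraries. KO replicate 1 lay within the control range, and KO replicate 3 was the highest library. Of 24 tested 5 (20.8%) rose and 0 fell, with a median of 1.08, and 13 rose with the block and 9 with library size alone. Clu, a secreted chaperone of Sertoli cells, had 26.9, 180.1 and 79.4 CPM in KO libraries, against 21.7, 19.8 and 39.3 CPM in control libraries. KO replicate 3 was far above every other library, and KO replicate 1 lay below the remaining control replicate. The 17 Leydig cell markers summed to 115, 374 and 257 CPM in KO libraries, against 134, 156 and 200.2 CPM in control libraries, and 4 (25%) of 16 tested rose, or 9 with the block, where 1 fell. KO replicate 1 was again the lowest of its group, below every control library. The 12 endothelial markers summed to 27.2, 60.5 and 68.7 CPM in KO libraries, against 41.0, 34.6 and 33.7 CPM in control libraries, and 2 (18.2%) of 11 rose. Among 20 peritubular and fibroblast markers Fn1, fibronectin, was the 1 that rose, and the sums of the groups overlapped. With the block 6 peritubular and fibroblast markers rose and 2 fell, and with library size alone 3 rose. Red blood cell markers summed to at most 2.45 CPM. Without KO replicate 3, in which Sertoli and Leydig markers were highest, 1918 genes in all were higher and 1029 lower. The number of Sertoli markers that rose was 18 with KO replicate 1 left out, 1 with KO replicate 3, the remaining KO replicate or control replicate 3 left out, 2 with control replicate 1 left out and 3 with the remaining control replicate left out. That of Leydig markers was 11 with KO replicate 1 left out, 1 with KO replicate 3 left out, 0 with the remaining KO replicate left out and 2 with control replicate 1 or control replicate 3 left out, and that of endothelial markers 5 with KO replicate 1 left out and 0 with KO replicate 3, the remaining KO replicate, control replicate 3 or the remaining control replicate left out. That of peritubular markers was 8 with KO replicate 1 left out and 2 with control replicate 1 left out.

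**Figure D4:**
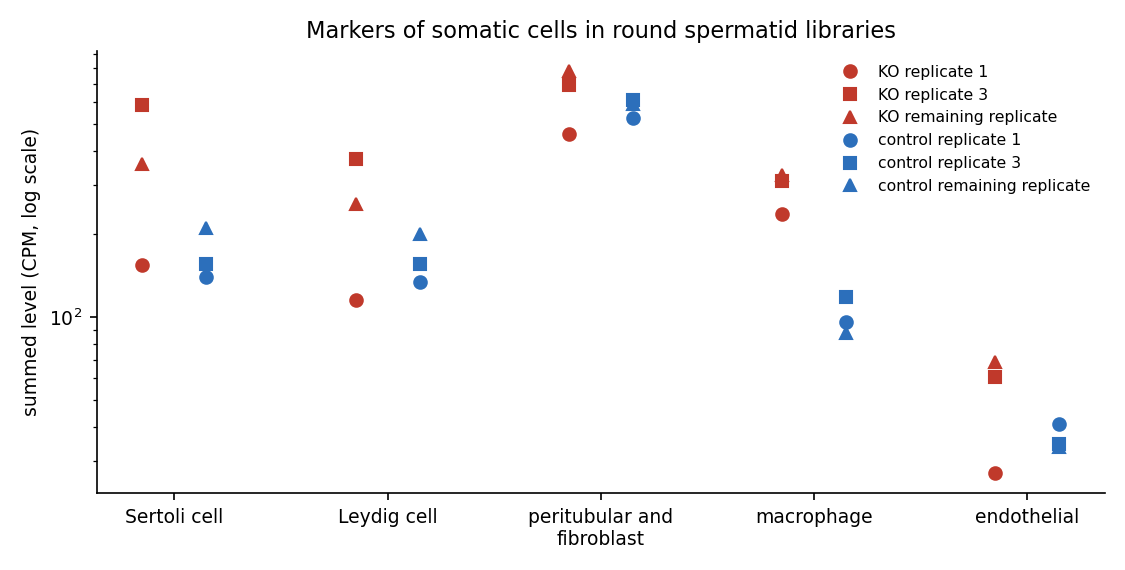
Summed CPM (vertical axis, log scale) of the markers of 5 somatic cell types in each round spermatid library, 1 point per library, with KO (red) left of control (blue) and a shape for each replicate. Macrophage markers do not overlap between the groups, at 237 to 327 CPM in KO and 87.4 to 118 CPM in control libraries, while for the other 4 types at least 1 KO library lies within or below the control range.

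The largest falls were of genes with varied roles, and apart from Hdac3 and Dlg2 all had means under 10 CPM in control libraries. With Hdac3, they were Fcmr, Col9a1, Agr3, Abcg8, Nudt12os, Vstm2a, Dlg2, Slc39a12, Psg19, Cd247 and Syt5, with log2 fold changes from -2.23 to -1.67. Dlg2, a membrane scaffold protein, had 6.33, 8.66 and 8.53 CPM in KO libraries, against 26.2, 33.8 and 24.2 CPM in control libraries, and fell by 1.84 on the log2 scale (SE 0.223, edgeR adjusted p = 0.00267). Col9a1, a collagen IX chain, had 2.99, 1.73 and 2.53 CPM in KO libraries, against 10.4, 7.84 and 11 CPM in control libraries, and fell by 2.01. Their KO libraries were uniformly low. Abcg8, a subunit of a sterol exporter, fell by 1.93, and Syt5, a synaptotagmin, by 1.67. Fcmr, a receptor for IgM, had 0.460, 2.75 and 0.948 CPM in KO libraries, against 5.04, 10.8 and 4.14 CPM in control libraries. Its groups did not overlap, and its call was lost without the remaining KO replicate or control replicate 3. Agr3, a protein of the endoplasmic reticulum, lost its call without the remaining KO replicate. Nudt12os is named as an opposite-strand gene and Psg19 belongs to a gene family, so their counts are uncertain. In PS the log2 fold changes were -1.83 for Dlg2, -2.11 for Abcg8, -1.54 for Syt5 and -0.87 for Col9a1, and the difference between the cell types passed for none of these 12 genes without the block and for Col9a1 with it (adjusted p = 0.0312).

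Genes on the X chromosome, which is silenced in meiosis and partly active again in round spermatids, were called higher more often than autosomal genes. Of 660 X-linked genes tested 220 rose (33.3%) and 16 fell (2.42%), with a median log2 fold change of 0.64. Of 15230 autosomal genes 2749 rose (18.05%) and 1946 fell (12.8%), with a median of -0.00085. In PS the X-linked genes also had the higher median, 0.46 against 0.04 for autosomal genes. Whether the X-linked shift differs between the cell types was not tested. Between 1 and 10 CPM, 37.7% of 377 X-linked genes rose, against 24.6% of autosomal genes. Between 10 and 100 CPM the shares were 26.3% of 213 X-linked and 19.4% of autosomal genes, with medians of -0.08 and -0.03. The X took 1.10%, 1.33% and 1.35% of counts in KO libraries, against 0.958%, 1.14% and 0.945% in control libraries. KO replicate 1 lay below control replicate 3, and the exact 2-sided permutation test gave p = 0.2, where 3 libraries against 3 cannot go below 0.1. The number of X-linked genes that rose was 146 without KO replicate 3 and 99 without the remaining KO replicate. The number that fell was 31 without KO replicate 1, 5 without KO replicate 3, 1 without the remaining KO replicate or control replicate 3 and 7 without the remaining control replicate. In the fit with the block, 302 of them were higher and 85 lower.

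Some X-linked genes are known to be expressed in spermatids after meiosis. Of 23 of these tested 2 (8.7%) rose and 1 (4.35%) fell, with a median of -0.43 and 9 falls with the block. Between 10 and 100 CPM 1 of 11 (9.09%) rose, with a median of -0.48, beside 26.3% and -0.08 for all X-linked genes at that level, and this difference was not tested. Tsga8, a nuclear protein gene of spermatids, had 214, 209.8 and 138 CPM in KO libraries, against 294, 486 and 311 CPM in control libraries, and fell by 0.96 on the log2 scale (SE 0.248, edgeR adjusted p = 0.0187), a call lost without the remaining KO replicate or control replicate 3. Akap4, the main fibrous sheath protein and the member with the most counts, had 1118, 1375 and 1729 CPM in KO libraries, against 1982, 2300 and 1702 CPM in control libraries. The groups of Akap4 overlapped and it passed only with the block (adjusted p = 0.0251). Tex16 rose by 1.20 and Ubqln2, which carries ubiquitinated proteins to the proteasome, by 1.66. Called lower were 2 with KO replicate 1 left out, 0 with the remaining KO replicate or control replicate 3 left out and 4 with control replicate 1 left out. Of 8 listed Y-linked genes 3 (37.5%) rose and 0 fell, and 5 rose with the block and 5 with library size alone. Of all 13 Y-linked genes tested 3 rose and 3 fell (23.1% each), and the 3 that fell, Gm20854, Gm20871 and Gm21943, are predicted gene models of a chromosome with many copies, so their counts are uncertain. The call of Gm20854 was lost without the remaining KO replicate. Ddx3y, a helicase, had 18.1, 15.6 and 14.6 CPM in KO libraries, against 6.74, 6.99 and 5.60 CPM in control libraries, and rose by 1.32. Its groups did not overlap. Kdm5d, a histone demethylase (1.36), and Uba1y, a ubiquitin-activating enzyme (0.64), lost their calls without the remaining KO replicate, control replicate 1 or the remaining control replicate. Eif2s3y, a translation factor with the most counts, had a log2 fold change of -0.26. Members called higher came to 1 with the remaining KO replicate, control replicate 1 or the remaining control replicate left out.

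**Figure D5:**
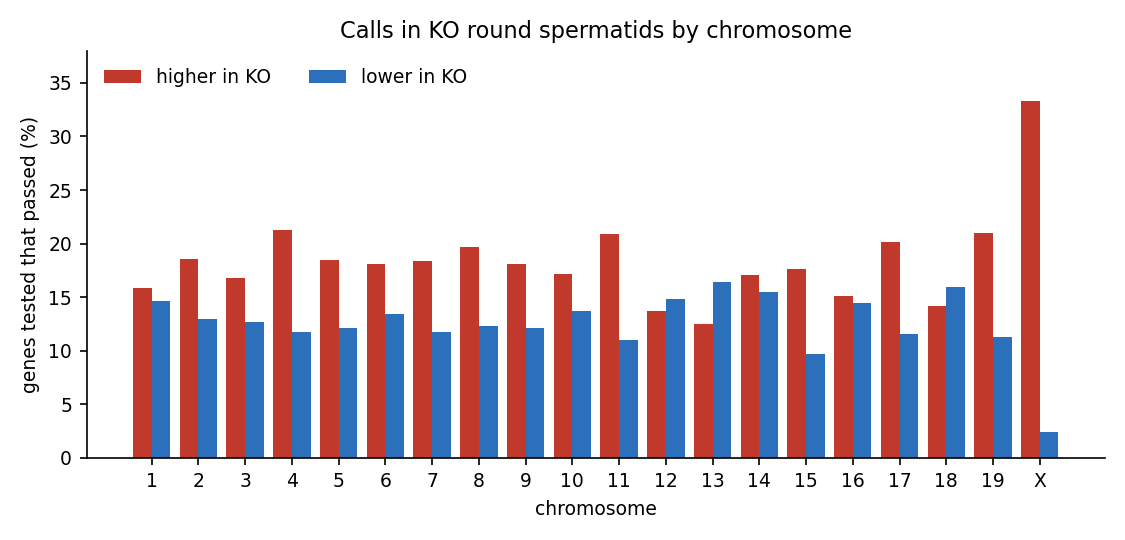
Share of tested genes (vertical axis, percent) that were higher (red) or lower (blue) in KO round spermatids, for chromosomes 1 to 19 and X (horizontal axis). The X has 33.3% higher and 2.42% lower, while autosomes lie between 12.5% and 21.3% higher, and the Y, with 13 genes, is left out.

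Few genes changed differently in round spermatids than in pachytene spermatocytes when the difference itself was tested. Of 16581 genes in a fit of all 12 libraries 3 passed (0.0181%, edgeR adjusted p under 0.05), each with the higher effect in round spermatids. At an unadjusted p under 0.05, 1907 genes had the higher effect in round spermatids and 346 the lower. With the replicate block 1103 (6.65%) were called higher and 159 (0.959%) lower. Gse1, a protein of deacetylase complexes with CoREST, had 22.1, 22.6 and 25.6 CPM in KO round spermatids, against 5.98, 5.93 and 6.0 CPM in control round spermatids, and it had 21.2, 18.2 and 18.5 CPM in KO PS, against 23.1, 16.9 and 19.1 CPM in control PS. The groups were far apart in round spermatids and overlapped in PS. The log2 difference of the effects was 2.04 (SE 0.253, edgeR adjusted p = 0.0154). Gclc, which limits glutathione synthesis, had 28.3, 31.6 and 33.7 CPM in KO round spermatids, against 15.9, 14.1 and 17.3 CPM in control round spermatids, and it had 53.3, 43.4 and 44.4 CPM in KO PS, against 79.7, 77.6 and 65.9 CPM in control PS. It was higher in every KO spermatid library and lower in every KO spermatocyte library. The third, Cspg4, is given with the flagged results. The number of genes that passed was 6 without KO round spermatid replicate 1. It was 2 without the remaining control replicate of round spermatids or of PS, 1 without replicate 3 of control PS, and 0 without any 1 of the other 8 libraries.

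Gtse1, a regulator of p53 in dividing cells, had a difference of 1.87 (edgeR adjusted p = 0.0548, 0.0014 with the block), and Tfdp1, the partner of E2F factors, of 1.24 (edgeR adjusted p = 0.0548, 0.00246 with the block). Tfdp1 had 40.9, 43.9 and 47.6 CPM in KO libraries, against 16.1, 16.2 and 18.9 CPM in control libraries, for a log2 fold change of 1.37, and its log2 fold change in PS was 0.17. Its spermatid groups were well apart. Of genes with the lower effect in round spermatids Zscan2, a zinc finger gene, had a log2 fold change of -0.69 there and 0.26 in PS, and Wdfy1, of endosomes, had -0.68 and 0.10. Neither difference passed without the block, and both did with it (adjusted p = 0.00722 for Zscan2 and 0.0232 for Wdfy1). The p53 list had a median of 1.09 in round spermatids and 0.32 in PS, the recombination list 0.70 and 0.20, and the spermatogonial list 1.18 and 0.25. Among lists that fell, sperm-egg interaction had -0.82 and -0.86, and fibrous sheath and outer dense fibres -0.70 and -0.90. Each of the other sperm structure lists had a less negative median in PS. Round spermatid markers had -0.76 and -0.93, and elongating spermatid transcripts -0.51 and -1.40. Differences between the medians of the cell types were not tested.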

How the data were processed

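Total RNA of round spermatids and pachytene spermatocytes was sequenced in 12 libraries, 3 for each genotype and cell type. Per the submitters' processing notes, HISAT2 2.1.0, HTSeq and DESeq2 were used, with the mm10 build. The sources used here do not state the strand setting or the annotation. The deposited table holds raw counts per gene for 21429 genes, and for each comparison the authors' log2 fold changes and adjusted p-values, of which only those of round spermatids are quoted and named as the authors' deposited values. A further 12 columns of normalized values were not used.

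The 6 round spermatid libraries, with 11205732 to 17393447 counts each, were tested with edgeR 4.0.16 in R 4.3.3: filterByExpr, TMM scaling, the quasi-likelihood test with group as the only term and 4 residual degrees of freedom, and Benjamini-Hochberg adjustment over the 15934 genes tested, with a threshold of 0.05. Fold changes are KO over control as edgeR gives them with its default prior count. A prior count of 2 entered only the log2 CPM used for the principal components and for the correlation of same-numbered libraries. The difference between cell types was the interaction contrast in a fit of all 12 libraries. The fit was also run on simulated data with known changes in few genes and with libraries drawn independently. The simulation held no effect shared by same-numbered libraries and no change as broad as the one here. It therefore does not test the fit under those conditions. Reads carry no molecular identifiers, so precision from counts covers counting error only. Replicates differed by more than counting noise, with a chi-square per gene of at least 16.6.

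The labels number the replicates within each group and state no pairing across genotypes. Libraries were paired here by that number for replicates 1 and 3 and by elimination for the remaining columns. Same-numbered libraries deviated together (r = 0.424, 0.448 and 0.325), while others gave r between -0.455 and 0.00201. Deviations were taken from group means and cancel within a group. The lower r of the others is therefore tied to that of same-numbered libraries and is no separate evidence of pairing. A fit with the replicate number as a block is given where it changes a call or moves a count by over 1.5 times. That fit leaves 2 residual degrees of freedom.

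Other alternatives were the scalings of DESeq2 1.42.0 and of library size alone, DESeq2 itself, limma 3.58.1 (voom), other filters, all 12 libraries in 1 fit, and leaving out each library. Named genes are Hdac3, the 12 largest rises and falls whose groups do not overlap and whose higher group averages 5 CPM or more, and, in each of 43 lists, up to 3 called members per direction and the member with the most counts. Gene models named Gm or Rik and near-identical copies were left out of the largest changes. Further members are named for their roles. The genes and lists were chosen with earlier results of these data known and carry no test of their own. Promoters are RefSeq's, matched by symbol in a table of 27025 genes on GRCm38.p6. Some genes that the rule would name are not reported here.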

Additional observations from a re-analysis of the deposited data

Results flagged for a closer look

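Beside the values above, the 3 genes whose KO effect differed between round spermatids and pachytene spermatocytes by the test of that difference call for a closer look. For Gse1 the effect in round spermatids minus that in PS was 2.035 on the log2 scale, and its edgeR adjusted p, 0.0154, became 0.209 with the least favourable library left out. For Gclc the difference was 1.68 (SE 0.22, edgeR adjusted p = 0.0154, 0.258 with the least favourable library left out), with log2 fold changes of 0.99 in round spermatids and -0.66 in PS. For Cspg4, a membrane proteoglycan that pericytes are known to carry, it was 4.343 (SE 0.65, edgeR adjusted p = 0.0487, 0.278 with the least favourable library left out). Cspg4 had 1.96, 3.57 and 3.63 CPM in KO round spermatids, against 1.20, 1.25 and 1.95 CPM in control round spermatids, with a log2 fold change of 1.06 (edgeR adjusted p = 0.0567). In PS it had 0.245, 0.0608 and 0.142 CPM in KO libraries, against 1.73, 1.08 and 1.67 CPM in control libraries, with a log2 fold change of -3.25 (edgeR adjusted p = 0.00713). All these levels are low. Peritubular and fibroblast markers had a median log2 fold change of 0.52 in round spermatids and -1.16 in PS, and their part in the Cspg4 difference was not tested.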

How the results depend on the processing

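Hdac3 was lower in KO round spermatids under every alternative, between -1.42 with library size alone and -1.80 on the log2 scale. The count of 4942 genes called became 8736 with the replicate block and 2688 with a fold threshold of 2, and ran from 1546 to 6391 with 1 library left out. Genes called higher became 4582 with the block and ran from 1128 to 3768 with 1 library left out. Genes called lower became 779 with library size alone and 4154 with the block, and ran from 418 to 2623. The 3 genes whose effect differed between cell types became 35 with library size alone, 6 without a filter and 1262 with the block, and ran from 0 to 6. DESeq2 called 2921 genes higher and 2570 lower. Of 168 named genes that passed, 103 kept their call under every alternative and none changed sign. The others lost it most often without the remaining KO replicate (62 genes), KO replicate 3 (42) or control replicate 3 (36), and 24 lost it with library size alone. The cause of these shifts was not tested. At an unadjusted p under 0.05, 7225 genes differed, with 4 residual degrees of freedom. Of 30 list counts of 1 to 3 called members, 19 came to 0 with at least 1 library left out.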
